A study of Mus musculus with 6 samples.

Results

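The sine oculis homeobox, EYA and DACH genes were examined in cultured muscle stem cells (MuSCs), as the 8 rows of the deposited matrix that carry the symbols Six2, Six4, Six5, Eya1, Eya2, Eya3, Eya4 and Dach1, out of 18943 genes. The choice was made by name, and every member had a row, a value above 0 in each library and a mean value high enough to be tested. The cells came from wild-type C57BL/6 mice aged 8 weeks, were purified by FACS (fluorescence-activated cell sorting) and were cultured for 5 days in 3 groups of 2 libraries. The first group received DMSO, the solvent control. The others received ET-3 (endothelin-3) or NT (neurotensin), both peptides that activate G protein-coupled receptors, and the groups did not differ in genotype, strain or age. By the sample labels each ligand was used at 100 nM, whereas the methods of the study give higher concentrations that differ between the ligands, so the dose behind these libraries is uncertain. The comparisons ask how far each ligand changed the transcripts of these factors, and whether the ligands differed from each other. The labels do not say whether the 2 libraries of a group came from separate mice or cultures, so p-values measure the spread between libraries, which may be technical.

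Sine oculis proteins are homeodomain transcription factors that bind DNA at MEF3 elements in the promoters of muscle genes, among them Myog, which encodes myogenin. They recruit EYA proteins, which lack a DNA-binding domain and act as coactivators and as protein phosphatases, and in other settings they work with DACH proteins or with corepressors of the Groucho (TLE) family. In skeletal muscle this network is known for its part in the formation of muscle progenitors, in the onset of Myog expression and in the fast fibre program.

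MEF3 matches are shown because sine oculis factors bind this element, and a list of genes described as their targets follows below. Of that list, only the window of Myog is reported. The letters TCAGGTT were searched on both strands of the 250 bases upstream of each RefSeq transcript start (GRCm38.p6), and they occurred in 3.49% of all 32851 upstream windows. Of the 8 members, 6 had a window, with 8 windows in all. Eya1 and Eya2 had 0 windows, so their upstream bases were not searched. In the members a match occurred in 1 window of Six4, and a match was also present in the window of Myog. Both are printed with 30 bases, 5′ to 3′ on the strand of the gene, with the match in capitals. The Six4 match reads on the opposite strand.
Myog, chr1:134289909-134289938, plus strand: tagaggggggcTCAGGTTtctgtggcgttg
Six4, chr12:73113324-73113353, minus strand: ggcctgggggaAACCTGAtcggccagatcc
The Myog match lay at -84 to -78 from the RefSeq start and outside annotated exons. The Six4 match lay at -97 to -91 from its RefSeq start, inside the 5′ UTR of a longer transcript of Six4 in the GENCODE annotation. Annotated exons of the same gene covered 211 of the 250 bases of that Six4 window. They covered 193 and 246 bases of the Eya4 windows. The E-box letters CANNTG, the element bound by MYOD and myogenin, occurred in 66.2% of all windows, in 1 window each of Eya3 and Eya4 and at 2 places in the Myog window. The E-box CAGCTG, a special case of CANNTG, occurred in 0 of the 8 member windows and in 13% of all windows. Six2 is the member that rose by more than 2-fold. The part of its window outside annotated exons holds 230 bases with a GC content of 64.8% and is printed in lower case because it contained 0 matches to these letters.
Six2, chr17:85688275-85688504, minus strand: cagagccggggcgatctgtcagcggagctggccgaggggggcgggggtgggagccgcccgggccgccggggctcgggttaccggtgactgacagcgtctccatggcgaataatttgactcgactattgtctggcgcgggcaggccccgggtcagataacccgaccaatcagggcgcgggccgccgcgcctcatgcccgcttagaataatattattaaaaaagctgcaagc
These matches describe letters only and do not show binding.

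The deposited values are whole numbers that behaved as read counts multiplied by a factor per library and rounded, so they are called scaled read values here. They summed to between 4214458 and 4600575 per library, which corresponds to between 3629256 and 5394852 reads on genes. A value of 100 then had a relative counting error between 8.84% and 10.9%, not counting other sources of error. The mean chi-square per gene between the libraries of a group, expected at 1 if 1 RNA had been sampled repeatedly, was 1.5 in the DMSO pair, 0.867 in the ET-3 pair and 0.958 in the NT pair. The ligand pairs therefore differed by no more than the sampling noise, and results are also given with each ligand pair averaged and counted as 1 sample. In that fit the residual spread comes from the DMSO pair alone, and a lone ligand sample is assumed to vary like it. Where a single library is left out, its partner is likewise assumed to vary like the other groups. In the marker lists, all 10 muscle stem cell and myogenic genes had a row, with summed values of 9816 to 10793 in DMSO, 9578 to 9822 in ET-3 and 8244 to 8606 in NT. Of the 9 tested, 1 was called lower and 0 higher under each ligand. These sums hide opposite moves. Pax7 was 857 and 1070 in DMSO and between 1599 and 1754 in the ligand libraries. Cdh15 was 1547 and 1746 in DMSO and between 436 and 496 in the ligand libraries. The quiescence receptor gene Calcr was between 0 and 3 in every library. The 6 genes of differentiated muscle summed to 28472 to 31463 in DMSO, 1495 to 1806 in ET-3 and 1685 to 2036 in NT, and all 6 were called lower under each ligand. The 6 smooth muscle and pericyte genes summed to 2980 to 3372 in DMSO, 748 to 796 in ET-3 and 868 to 915 in NT, with 3 of the 4 tested called lower under each ligand, while Myh11 and Kcnj8 were between 0 and 4 in every library. Macrophage genes, 3 of 6 with a row, summed to 25 to 32, 55 to 77 and 51 to 60 in the same order, and Schwann cell genes, 3 of 5 with a row, to 40 to 44, 17 to 18 and 28 to 38. The macrophage genes did not move alike. Cd14 was 4 and 5 in DMSO and between 24 and 34 in the ligand libraries. Cd68 was 15 and 14 in DMSO and between 16 and 41, whereas Csf1r was 6 and 13 in DMSO and 4 or 5 in the ligand libraries. In bulk RNA, fewer cells of a type and less RNA per cell cannot be told apart, and the part of these marker differences in the results below, the falls of Eya2 and Eya4 included, was not tested.

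Among the members, the EYA genes carried the largest differences. Eya2 and Eya4 transcripts fell under both ligands, Six2 rose under both, Eya1 and Eya3 rose by less than 2-fold under both, and Six4 fell slightly under ET-3. Six5 and Dach1 did not pass the test. Changes were tested with limma on log2(value + 1) over 13921 genes whose mean value reached 5, with Benjamini-Hochberg adjustment over these genes, and members with an adjusted p up to 0.05 and a change of 2-fold or more are named as called. On this log2 scale the change of low genes is understated. Under ET-3, 3 of the 8 members were called, against 21.5% of all tested genes. Of these, 1 was higher, against a background of 6.62%, and 2 were lower, against 14.9%. Under NT, 3 of the 8 were called, against a background of 20.5%, with 1 higher against 7.3% and 2 lower against 13.2%. The median log2 fold change of the 8 members was 0.01 for ET-3 and 0.16 for NT, beside -0.01 and -0.01 over all tested genes. Both comparisons use the same DMSO libraries, so they are not independent of each other. By adjusted p alone, 6 members passed under ET-3, where 63.7% of all tested genes passed, with 3 higher against 30.6% and 3 lower against 33.2%. Under NT, 5 members passed against 62.2%, with 3 higher against 29.7% and 2 lower against 32.5%.

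**Figure D1:**
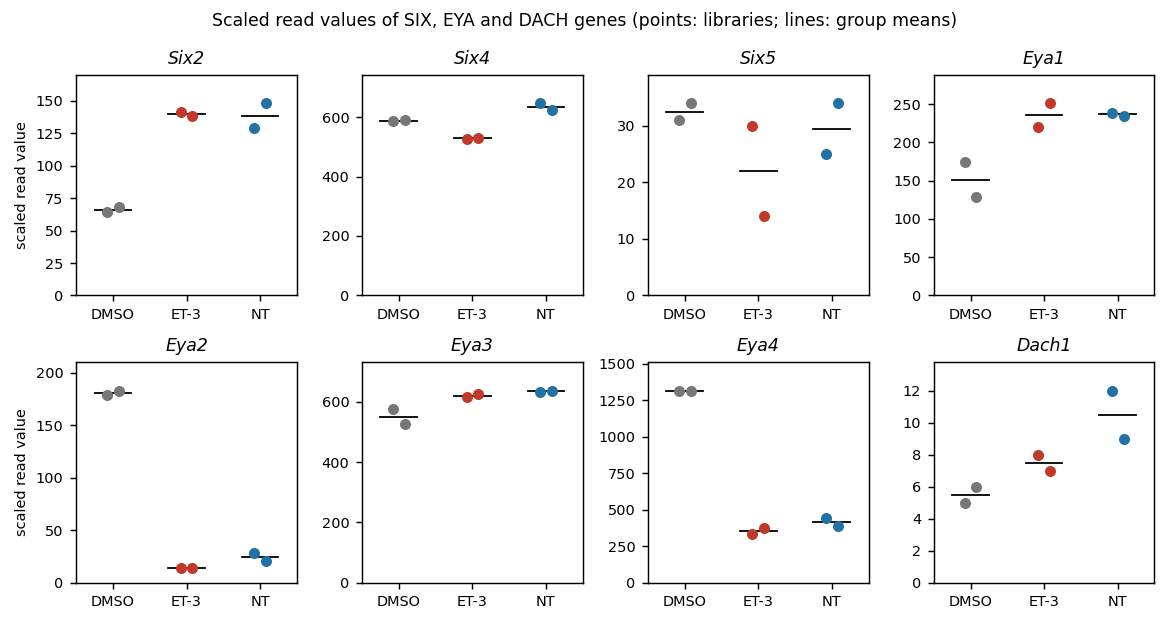
Scaled read value of each member (y axes from 0, scales differ) in the 2 libraries of DMSO, ET-3 and NT, with points for libraries and lines for group means. Eya2 and Eya4 are lower and Six2 is higher in all 4 ligand libraries than in both DMSO libraries, whereas the points of Six5 overlap between groups.

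Eya2 (chr2:165595032-165771727, plus strand, GRCm38, as are all gene positions here) encodes an EYA coactivator that is expressed in embryonic and adult myogenic cells. Its scaled read values were 179 and 183 in DMSO, 14 and 14 in ET-3 and 28 and 21 in NT. The DMSO libraries were far above all 4 ligand libraries, and both NT libraries were above both ET-3 libraries. The mean of 181 ± 2.83 (SD, n = 2) with DMSO was 12.9-fold that with ET-3 and 7.39-fold that with NT, where the means were 14.0 ± 0.00 and 24.5 ± 4.95 (SD, n = 2 each). The log2 fold change was -3.60 for ET-3 (SE 0.21, limma adjusted p = 2.88e-07) and -2.85 for NT (SE 0.21, limma adjusted p = 1.60e-06). Divided by the library factors, the ET-3 values rest on 12 and 13 reads and the NT values on 33 and 27 reads, so counting error is large for this gene under the ligands. With each ligand pair averaged, against the spread of the DMSO pair alone, the limma adjusted p was 0.0221 and 0.0247.

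Eya4 (chr10:23102963-23350786, minus strand) encodes another EYA coactivator, known from the heart and the inner ear as well as from muscle. Its values were 1313 and 1317 in DMSO, 335 and 376 in ET-3 and 447 and 387 in NT. The DMSO libraries lay close together and above all ligand libraries, and the lower NT library was close to the higher ET-3 library. The DMSO mean was 3.70-fold the ET-3 mean and 3.15-fold the NT mean. The log2 fold change was -1.89 for ET-3 (SE 0.08, limma adjusted p = 2.25e-08) and -1.66 for NT (SE 0.08, limma adjusted p = 5.76e-08). Of the member changes that were called, this one rests on the highest values. Over the alternatives run, its log2 fold change ranged from -1.97 to -1.80 for ET-3 and from -1.76 to -1.55 for NT.

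Eya1 (chr1:14168954-14310235, minus strand) encodes an EYA coactivator with a part in the formation of muscle progenitors in the embryo. Its values were 174 and 129 in DMSO, 220 and 251 in ET-3 and 239 and 234 in NT. All ligand libraries were above both DMSO libraries, but the DMSO libraries were the most spread of the 3 groups. It rose by a log2 fold change of 0.65 under ET-3 (SE 0.13, limma adjusted p = 0.00146) and 0.65 under NT (SE 0.13, limma adjusted p = 0.00141), which passed the adjusted p but not the 2-fold threshold. The size depended on the DMSO libraries. It was 0.86 and 0.87 without the first DMSO library, and 0.43 and 0.44 without the second. With each ligand pair averaged the changes were again 0.65 and 0.65 with limma adjusted p = 0.182 and 0.183, against the spread of the DMSO pair alone.

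Eya3 (chr4:132638987-132724765, plus strand) encodes an EYA protein that is expressed in many tissues. Its values were 575 and 525 in DMSO, 616 and 625 in ET-3 and 632 and 637 in NT. The groups did not overlap, and the difference was small beside those of Eya2 and Eya4. On the log2 scale the change was 0.18 for ET-3 (SE 0.05, limma adjusted p = 0.0170) and 0.21 for NT (SE 0.05, limma adjusted p = 0.00744). With each ligand pair averaged the changes were again 0.18 and 0.21, with limma adjusted p = 0.239 and 0.195 against the spread of the DMSO pair alone. Leaving out the second DMSO library or either ET-3 library took the ET-3 adjusted p to between 0.0548 and 0.0956. For NT, leaving out either NT library gave 0.0516 and 0.0616.

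Because these 4 genes encode related proteins, their levels were set side by side per kilobase of exon, scaled to the library total as in RPKM. With DMSO the mean level was 30.4 for Eya4, 21.2 for Eya3, 13.3 for Eya2 and 4.23 for Eya1. With ET-3 the order was Eya3 at 25.5, Eya4 at 8.76, Eya1 at 7.0 and Eya2 at 1.10, and with NT it was Eya3 at 26.5, Eya4 at 10.4, Eya1 at 7.14 and Eya2 at 1.95. Within each group, the libraries of these 4 genes did not overlap between neighbours in the order. The summed EYA level was 67.6 to 70.9 in DMSO, 41.1 to 43.6 in ET-3 and 45.3 to 46.8 in NT.

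The composition of the EYA level therefore differed between the groups. Eya4 made up 44.0% of it in DMSO, 20.7% in ET-3 and 22.7% in NT. The share of Eya2 was 19.3% in DMSO, 2.59% in ET-3 and 4.23% in NT. Eya3 held 30.7% in DMSO, 60.2% in ET-3 and 57.6% in NT, while its own level was 21.2, 25.5 and 26.5. The share of Eya1 was 6.10%, 16.5% and 15.5% in the same order. These shares are descriptions and rest on exonic lengths of all annotated transcripts, since transcript use was not measured.

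**Figure D2:**
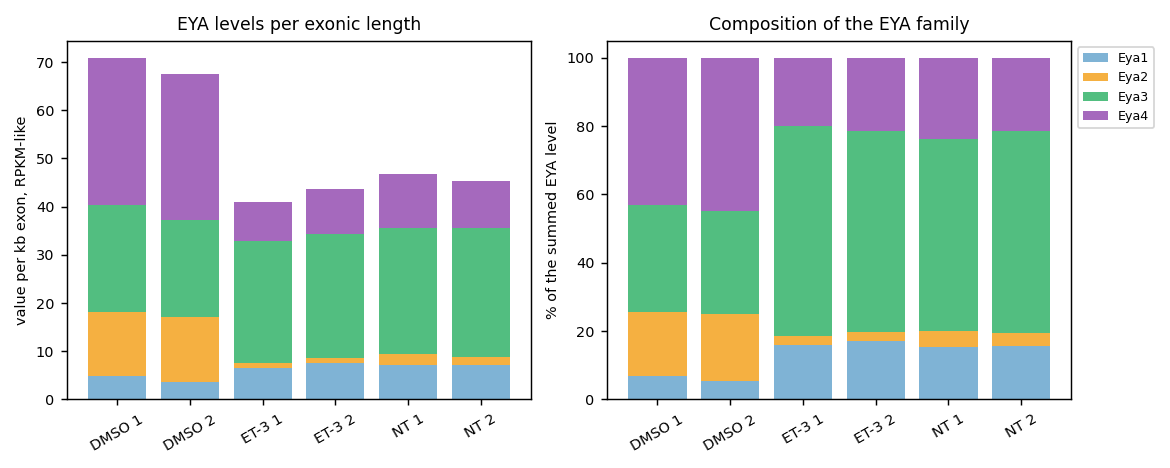
Levels of the 4 EYA genes per kilobase of exon in RPKM-like units (left) and as a percentage of their sum (right), 1 bar per library. The summed level is 67.6 to 70.9 with DMSO and 41.1 to 46.8 with the ligands, and Eya3 rather than Eya4 holds the largest share in the ligand libraries.

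Of the sine oculis genes, Six2 (chr17:85684277-85688274, minus strand) encodes a homeodomain factor that is best known for maintaining nephron progenitors and is also expressed in tendon and connective tissue. Its values were 64 and 68 in DMSO, 141 and 138 in ET-3 and 129 and 148 in NT. All 4 ligand libraries were above both DMSO libraries, and the ranges of the 2 ligands overlapped. The ligand means were 2.11-fold and 2.10-fold the DMSO mean of 66.0 ± 2.83 (SD, n = 2). The log2 fold change was 1.07 for ET-3 (SE 0.12, limma adjusted p = 2.74e-05) and 1.06 for NT (SE 0.12, limma adjusted p = 3.18e-05). These values lie just above the 2-fold threshold. Without the second NT library the NT change was 0.96 with limma adjusted p = 0.00219, so that call was lost. With each ligand pair averaged, against the spread of the DMSO pair alone, the limma adjusted p was 0.0346 and 0.0374.

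Since Six2 is also expressed in connective tissue, the marker lists of such cells are given beside it. Of the 5 tendon genes, 4 had a row, with sums of 622 to 690 in DMSO, 440 to 447 in ET-3 and 376 to 406 in NT, of which Scx made up the most, while Thbs4 was at 1 or 2 in every library. Of the 6 fibroadipogenic genes, 4 had a row, and the sums were 136 to 147 in DMSO, 64 to 76 in ET-3 and 82 to 90 in NT. Within the latter list, Dcn was 9 and 17 with DMSO and between 0 and 2 in the ligand libraries. Col15a1 was 80 and 82 with DMSO and 0 or 1 in the ligand libraries, and without it the fibroadipogenic sums were 56 and 65 in DMSO, 63 and 75 in ET-3 and 82 and 89 in NT. The tendon sum, mostly Scx, was lower with the ligands, and the direction of the fibroadipogenic sum depended on Col15a1. Single genes were higher with the ligands. Mkx was 12 and 32 with DMSO and between 38 and 47 in the ligand libraries, and Ly6a was 27 and 18 with DMSO and between 37 and 52 in the ligand libraries. The part of these cells in the Six2 result was not tested.

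Six4 (chr12:73099609-73113456, minus strand) encodes a homeodomain factor that binds MEF3 elements. Its values were 585 and 590 in DMSO, 527 and 529 in ET-3 and 646 and 622 in NT. The groups did not overlap, with ET-3 below and NT above DMSO, and the libraries within a group lay close together. The log2 fold change was -0.15 for ET-3 (SE 0.05, limma adjusted p = 0.0164) and 0.11 for NT (SE 0.05, limma adjusted p = 0.0685). Which of these small changes passed depended on the setting. Over 16 alternatives, the ET-3 change passed in 11 and the NT change in 2. With each ligand pair averaged the changes were again -0.15 and 0.11. With each library scaled to its total, which moved the median of all tested genes to 0.08 for ET-3 and 0.10 for NT, the ET-3 change was -0.06 (limma adjusted p = 0.243) and the NT change 0.22 (limma adjusted p = 0.00165).

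Six5 (chr7:19094594-19098549, plus strand) encodes a homeodomain factor and lies next to the myotonic dystrophy gene Dmpk. Its values were 31 and 34 in DMSO, 30 and 14 in ET-3 and 25 and 34 in NT. The groups overlapped, and the ET-3 libraries were the farthest apart, with the second below every other library. Fitted log2 fold changes were -0.63 for ET-3 (SE 0.34, limma adjusted p = 0.133) and -0.15 for NT (SE 0.34, limma adjusted p = 0.723), and a change was not detectable at this depth. The ET-3 change rested on which library was kept, since it was -1.16 without the first ET-3 library (limma adjusted p = 0.0188) and -0.11 without the second (limma adjusted p = 0.756), each with 1 ET-3 library left.

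On the same scale per kilobase of exon, the DMSO levels of the sine oculis members were 11.8 for Six4, 6.79 for Six2 and 2.36 for Six5. Under ET-3 they were 11.3, 15.3 and 1.70, and under NT 13.8, 15.4 and 2.32. Six2 thus lay below Six4 with DMSO and above it with either ligand, without overlap between the libraries of these 2 genes in any group. Six5 and Eya2 were neighbours in the order under both ligands and did not differ beyond the spread of their libraries there.

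Dach1 (chr14:97786853-98169765, minus strand) encodes a transcriptional cofactor that can repress the targets of sine oculis factors. It had the lowest level of the 8, with values of 5 and 6 in DMSO, 8 and 7 in ET-3 and 12 and 9 in NT. The libraries did not overlap between groups, but at such values 1 read matters. Fitted log2 fold changes were 0.39 for ET-3 (SE 0.36, limma adjusted p = 0.373) and 0.82 for NT (SE 0.36, limma adjusted p = 0.0750), with 95% intervals of -0.42 to 1.20 and 0.00 to 1.63. Its mean level per kilobase of exon was 0.164 in DMSO, 0.238 in ET-3 and 0.338 in NT, which was above 1.36%, 4.66% and 5.47% of the tested genes. Dach1 is also expressed in endothelial cells. The 4 of 7 endothelial marker genes with a row summed to 11 to 24 in DMSO, 37 to 39 in ET-3 and 39 to 43 in NT, of which Kdr made up the most and Cdh5 lay between 0 and 5. The part of such cells in the Dach1 values was not tested.

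**Figure D3:**
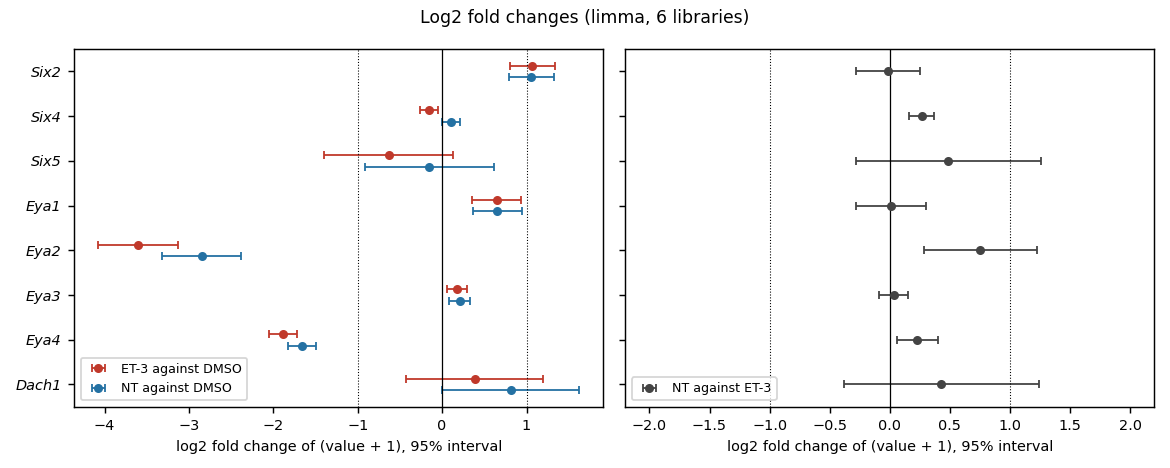
Log2 fold change of each member with its 95% interval from limma, for each ligand against DMSO (left) and for NT against ET-3 (right), with dotted lines at a 2-fold change. Eya2 at -3.60 and -2.85 and Eya4 at -1.89 and -1.66 lie beyond the lower line, and Six2 at 1.07 and 1.06 lies just beyond the upper one.

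The ligands were then compared with each other. Of the 8 members, 0 were called between NT and ET-3 by limma, against 0.079% of all tested genes (0.0503% higher and 0.0287% lower with NT). By adjusted p alone 1 member passed, against 2.69% of all tested genes, and this was Six4, higher with NT like 0.647% of all tested genes. Its log2 fold change was 0.26 (SE 0.05, limma adjusted p = 0.0379), with a 95% interval of 0.16 to 0.37, and both NT libraries were above both ET-3 libraries. It passed in 6 of the 17 alternatives, and the adjusted p ranged from 0.00557 to 0.712. The Eya2 difference was 0.75 (SE 0.21, limma adjusted p = 0.0913), with a 95% interval of 0.28 to 1.22. The Eya4 difference was 0.23 (SE 0.08, limma adjusted p = 0.134), with an interval of 0.06 to 0.40. For Six2 the difference was -0.01 with an interval of -0.28 to 0.25, for Eya1 0.01 with -0.28 to 0.30, and for Eya3 0.03 with -0.09 to 0.15. The intervals of Six5, from -0.28 to 1.25, and of Dach1, from -0.39 to 1.24, do not exclude a 2-fold difference between the ligands. The same holds for the interval of Eya2.

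A list of 24 genes, written from general knowledge, that work with these factors, such as PAX genes, Groucho corepressors and deacetylase complexes, had 22 rows and 21 tested genes. Of these, 2 were called under ET-3 and 2 under NT, all lower, against 21.5% and 20.5% of all tested genes called and 14.9% and 13.2% called lower. Both are Groucho corepressors. Tle2 was 194 and 210 in DMSO, 63 and 62 in ET-3 and 75 and 60 in NT, with log2 fold changes of -1.68 (limma adjusted p = 3.62e-06) and -1.57 (limma adjusted p = 6.05e-06). Tle4 was 171 and 168 in DMSO, 58 and 75 in ET-3 and 77 and 68 in NT, with log2 fold changes of -1.35 (limma adjusted p = 2.80e-05) and -1.22 (limma adjusted p = 6.10e-05). For both genes all ligand libraries were below both DMSO libraries. The other Groucho genes of the list, named here after their values were seen, did not move alike. Tle1 rose under both ligands, with log2 fold changes of 0.69 (limma adjusted p = 1.59e-05) and 0.74 (limma adjusted p = 1.01e-05), and Tle5 fell by less than 2-fold, with -0.21 (limma adjusted p = 0.0165) and -0.47 (limma adjusted p = 0.000113). Tle3 was at 0.07 and 0.03 and did not pass the test. By adjusted p alone, 9 genes of the list were higher and 5 lower under ET-3, and 10 were higher and 5 lower under NT. Of all tested genes, 30.6% were higher and 33.2% lower under ET-3, and 29.7% and 32.5% under NT. The median log2 fold change of the list was 0.10 for ET-3 and 0.07 for NT, beside -0.01 and -0.01 over all tested genes. Between NT and ET-3, 0 genes of the list were called by limma, against 0.079% of all tested genes. By adjusted p alone 1 was lower with NT, against 2.05% of all tested genes.

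A list of 19 genes described as targets of sine oculis factors or MEF3 elements in muscle had 18 rows, all tested. Under ET-3, 1 was called higher and 12 lower, and under NT 1 higher and 11 lower, against backgrounds of 6.62%, 14.9%, 7.3% and 13.2% of all tested genes. The median log2 fold change was -3.07 for ET-3 and -3.13 for NT, beside -0.01 and -0.01 over all tested genes. By the larger of the changes under the 2 ligands on the log2 scale, the first 6 genes of the list were the fast myosin heavy chains Myh1, Myh2 and Myh4, the calcium pump Atp2a1, Myog and the calcium buffer Pvalb. Myh1 was 2998 and 3406 in DMSO, 5 and 3 in ET-3 and 6 and 6 in NT. Myog, whose upstream MEF3 match is printed above, was 1157 and 1335 in DMSO, 31 and 38 in ET-3 and 31 and 28 in NT, with log2 fold changes of -5.14 (limma adjusted p = 2.53e-09) and -5.35 (limma adjusted p = 2.89e-09). Atp2a1 was 2204 and 2502 in DMSO, 55 and 49 in ET-3 and 89 and 66 in NT. The ligand libraries of these 3 genes were all far below the DMSO libraries. Myh4 was 203 and 209 with DMSO and 0 in all ligand libraries, Myh2 was 89 and 104 against 0 or 1, and Pvalb was 24 and 44 against 0 or 1. The place of Pvalb rests on NT libraries at 0 and so on the pseudocount, and under ET-3 Tnnc1, a troponin gene, changed more (-4.65) than Pvalb (-4.57). The gene called higher was Ccnd1, which encodes the cell cycle regulator cyclin D1. It was 964 and 926 in DMSO, 2409 and 2197 in ET-3 and 1930 and 1854 in NT. Its NT change lay at the threshold with a log2 fold change of 1.00, and the NT call was lost without the second DMSO library or the first NT library, with a pseudocount of 5 and with voom weights. Most genes of this list are also targets of other myogenic factors and markers of differentiated muscle, whose summed values moved with them, and the part of the 8 members in these changes was not tested. Between NT and ET-3, 0 genes of the list were called by limma, and 3 were lower with NT by adjusted p alone, against 2.05% of all tested genes.

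**Figure D4:**
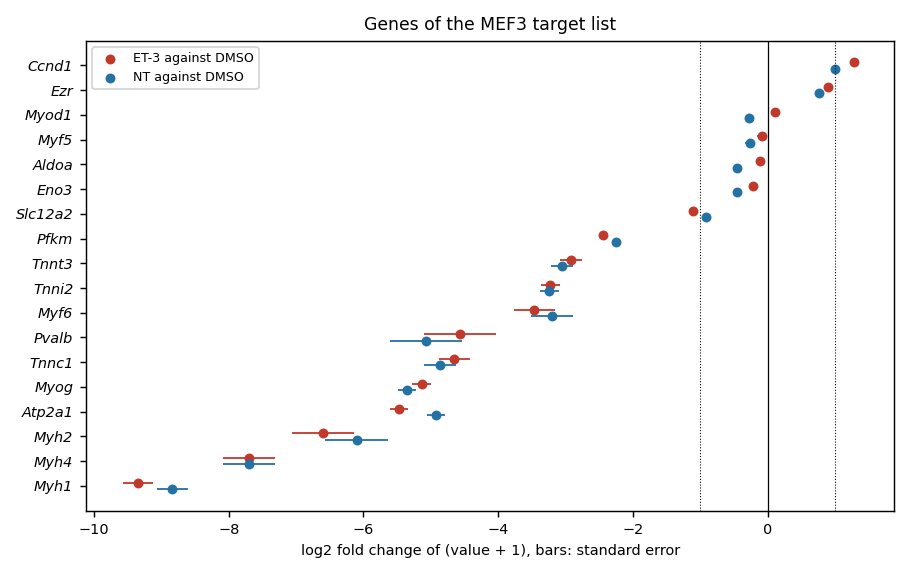
Log2 fold change against DMSO of the 18 tested genes of the MEF3 target list under ET-3 and NT, with bars for the standard error and dotted lines at a 2-fold change. Under ET-3 12 genes and under NT 11 genes lie beyond the lower line, and Ccnd1 lies at or beyond the upper one. The positions of Myh2, Myh4 and Pvalb, listed at 0 in ligand libraries, depend on the pseudocount.

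For each member that was called, the tested genes with the most similar pattern were found by the root mean square difference of log2(value + 1), centred on the gene mean, over the 6 libraries. For Six2 these were Upp1 at 0.0405, Rassf8 at 0.0510 and Cotl1 at 0.0536. For Eya4 they were Tro at 0.0259, Mxd4 at 0.0490 and Maged2 at 0.0705. For Eya2 they were Clstn2 at 0.107, Gucy1b1 at 0.163 and 1 of the 2 rows named Pakap at 0.165. Clstn2, for example, was 152 and 139 in DMSO, 13 and 11 in ET-3 and 21 and 16 in NT. Within a difference of 0.2 lay 799 genes for Six2, 221 for Eya4 and 10 for Eya2. The genes named for Six2 and Eya4 are therefore examples from many with a similar pattern.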

How the data were processed

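RNA of cultured MuSCs was sequenced in 6 libraries, 2 per group by the labels, although the design text speaks of triplicates. The submitters' processing notes name FastQC, Trimmomatic 0.38, STAR 2.7.7a, featureCounts 1.6.5 of Subread, DESeq2 1.30.0 and mm10, whereas the paper's methods name other trimming and an RNA library kit that marks strand, unlike the kit in the labels. Exons of 0 members overlap another annotated gene, so strand cannot move reads onto or off these genes. The deposited values are a read signal, whole numbers that behave as counts multiplied by a library factor and rounded. The factors, 0.994 and 1.15 for DMSO, 1.19 and 1.09 for ET-3, and 0.855 and 0.781 for NT, were fitted to how often each whole number occurs, and that of DMSO 1 could hardly be told from 1. In DMSO 2, ET-3 1 and ET-3 2, 15, 18 and 10 of the whole numbers examined cannot come from any read count, and 0 genes lay at them. Count models were therefore not run.

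limma 3.58.1 in R 4.3.3 (lmFit, contrasts, eBayes with trend) was fitted to log2(value + 1) of all 6 libraries without a block, leaving out 5022 genes with a mean under 5. Benjamini-Hochberg adjustment covered the 13921 tested genes. Levels used exonic lengths from GENCODE vM21 (GRCm38), and windows came from RefSeq. All members were named. Of the network and MEF3 target lists, the 6 called genes with the largest change at most were named, and Ccnd1, Tnnc1 and other Groucho genes were named after its values were seen. The 3 most similar genes were named per called member. The members and the lists, written from general knowledge, were chosen with earlier results of these data known. Some genes of the family are not reported here. Alternatives covered filter, scaling, pseudocount, voom weights, replicate block, the 2 groups alone, averaged ligand pairs, the fold threshold, a coverage trend, and each library left out in turn. Python 3.11.15 with pandas 2.3.3, numpy 2.4.6 and matplotlib 3.10.9 prepared tables and plots.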

Additional observations from a re-analysis of the deposited data

Results flagged for a closer look

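Six4 differed between the ligands. Against the same DMSO libraries its log2 fold change was -0.15 with ET-3 and 0.11 with NT, and NT set against ET-3 gave 0.26 (limma adjusted p = 0.0379). Both NT libraries, at 646 and 622, were above both ET-3 libraries, at 527 and 529. The difference kept its direction in all 17 alternatives, from 0.21 to 0.29, and passed an adjusted p of 0.05 in 6 of them. With a trend against coverage removed it was 0.21 with limma adjusted p = 0.0976.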

How the results depend on the processing

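The calls of Eya2, Eya4 and Six2 against DMSO passed in every alternative run (with ligand pairs averaged, against the spread of the DMSO pair alone) except that Six2 under NT fell to 0.96 without the second NT library. In their deviations from the group means, same-numbered libraries correlated at -0.01, -0.07 and -0.02. Because the ligand pairs differed by no more than sampling noise, these values cannot show whether libraries were paired. With the replicate number as a block, 3, 3 and 0 members were called, as without it, and the Six4 difference between the ligands had limma adjusted p = 0.0691. Without the fold-change threshold, 6, 5 and 1 members passed for ET-3, NT, and NT against ET-3, as did 14, 15 and 1 genes of the network list, and 3 genes of the MEF3 target list between NT and ET-3. Of 389 values of single members under the alternatives, 353 kept their direction and their side of the threshold, 25 lost and 3 gained an adjusted p of 0.05, and 8 changed sign, all of them small. With each library left out in turn, Six5 ranged from -1.16 to -0.11 under ET-3 and from -0.36 to 0.065 under NT, and between the ligands Six2 ranged from -0.11 to 0.085, Six5 from -0.039 to 1.01 and Eya1 from -0.086 to 0.10. Between the ligands Six2 was 0.010 with library total scaling, and Eya1 was -0.079 with the coverage trend removed. The causes were not tested. With a minimum mean value of 20, Dach1 was not tested. Depth limits Dach1, Six5 and Eya2 under the ligands.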
